A study of Mus musculus with 11 samples.

Results

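The ETS genes described here encode 9 transcription factors of one family: Ets1, Ets2, Etv4, Etv5, Elk1, Elk3, Etv6, Elf1 and Gabpa. They were taken by name, as every probe set whose annotated symbol was exactly one of these, which gave 17 of 22626 probe sets (controls aside) for 9 of 12393 measured genes. Each gene is given by its brightest probe set, with its other probe sets beside it. The 9 genes were selected on family membership with earlier results of these arrays known, among the measured values the colony changes and a lower Ets1 signal in colonies of both lines. Their changes between monolayer and colonies, and the difference of those changes between the lines, which is computed from them, are therefore described without a p-value. The word called marks a limma adjusted p under 0.05 over all genes, and for these changes it is part of the description. The differences between the lines within monolayer or within colonies are given with their test, except that of Ets2 in colonies. That test uses the same arrays, and the line difference in colonies is the one in monolayer plus the difference of the colony changes. Its p-values for the 9 genes therefore describe these arrays and are no independent test. The gene lists used below were also chosen with earlier results of these data known, and most genes named from them were picked for their change. The p-values printed for list genes therefore describe these arrays and are no independent test.

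JB6 cells are a mouse line derived from epidermis, used to study the step to growth without attachment. RT101 cells, an untreated tumour variant of JB6, were sampled as colonies formed over soft agar on day 7 (3 arrays) and as an attached monolayer (2 arrays). Parental JB6 cells of clone 41-5A given basic fibroblast growth factor (bFGF), called bFGF-JB6 below, were sampled as colonies on day 7 with 10 ng/ml bFGF (3 arrays) and as a monolayer (3 arrays). The monolayers of clone 41-5A are also labelled as bFGF-treated, but no dose or duration is given for them. All cells grew in medium with 4% serum. Each line stands for 1 tumour variant or 1 parental clone, RT101 and bFGF-JB6 cells differ in line and in growth factor at once, and separate cultures behind the arrays of a group are not stated. The p-values below measure the spread between these arrays, which may be technical.

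ETS factors share a DNA-binding domain that recognises sites built around a GGAA core. Many of them sit at the end of the Ras-ERK pathway: ERK phosphorylates Ets1, Ets2, Elk1 and Elk3, and fibroblast growth factors are classical inducers of Etv4 and Etv5 transcription. Others act mainly as repressors, such as Etv6, or serve housekeeping promoters, such as Gabpa. In skin, Ets1 and Ets2 are known from keratinocyte growth, squamous tumours and the transcription of matrix proteases.

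Signals are log2 values, so a difference of 1 is 2-fold. The median of gene means was 6.30 and their lower quartile 4.09. Of 8 keratinocyte markers, 4 lay at or below that quartile in every group, among them Krt14, which averaged 3.61 to 3.80 over the groups, and Krt18 at 3.04 to 3.14. Krt10 was higher, at 5.24 in RT101 colonies and 5.08 in RT101 monolayer, with 7.35 in bFGF-JB6 colonies and 6.81 in bFGF-JB6 monolayer. Krt5 (4.98 to 5.18), Krt8 (5.22 to 5.43) and Krt15 (4.15 to 4.29) averaged below the median of gene means in every group. Of 8 mesenchymal markers, Vim (12.87 to 13.16), Col1a1 (8.35 to 9.37) and Col1a2 (10.89 to 11.30) were strong. So were Col3a1 (9.54 to 12.38) and Pdgfra (9.35 to 10.55), and Pdgfrb averaged 6.23 to 9.30. Thy1 (3.43 to 3.67) and Lum (2.99 to 3.14) lay below the lower quartile. Spi1, a leukocyte factor of the same ETS family, averaged 4.64 to 4.86 and the endothelial marker Pecam1 3.24 to 3.30. The cells are called by their line names here, and their cell type was not tested. The summed linear signal of 8 mesenchymal markers was 18503 to 19162 in RT101 colonies and 11705 to 12366 in RT101 monolayer, and 12327 to 13744 in bFGF-JB6 colonies and 13249 to 13983 in bFGF-JB6 monolayer, with 4 of the 8 called higher in colonies of each line and 1, Vim, lower in bFGF-JB6 colonies (-0.29, adjusted p = 0.0128). Its part in the results below was not tested. On bFGF-JB6 colonies replicate 3 and bFGF-JB6 monolayer replicate 1 the Gapdh control signal was higher at the 3' than at the 5' end, by 0.35 and 0.19 on the log2 scale, against -0.08 to -0.01 on the other arrays. Where the call of 1 of the 9 genes changed without these 2 arrays, both values are given.

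Ets1, an activator that ERK switches on by phosphorylation, was lower in colonies than in monolayer in both lines. Its log2 signal was 6.37, 6.45 and 6.50 in RT101 colonies, against 7.94 and 7.85 in RT101 monolayer. It was 5.76, 5.90 and 6.05 in bFGF-JB6 colonies, against 7.27, 7.15 and 6.94 in bFGF-JB6 monolayer. In neither line did colony and monolayer arrays overlap, and the 4 groups kept 4 separate ranges: bFGF-JB6 colonies lowest, then RT101 colonies, bFGF-JB6 monolayer and RT101 monolayer. Group means were 6.44 ± 0.06 in RT101 colonies and 7.90 ± 0.06 in RT101 monolayer (SD, n = 3 and 2), and 5.90 ± 0.14 in bFGF-JB6 colonies and 7.12 ± 0.17 in bFGF-JB6 monolayer (SD, n = 3 each). The colony signal was lower by a factor of 2.74 in RT101 (log2 change -1.46, SE 0.11) and of 2.32 in bFGF-JB6 cells (log2 change -1.22, SE 0.10). These changes differed between the lines by -0.24 (SE 0.15), which was not called.

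The array carried 4 probe sets for Ets1, and all 4 were lower in colonies with no overlap between the arrays. Their log2 changes were -1.46, -1.14, -0.57 and -0.71 in RT101 cells, and -1.22, -1.19, -0.65 and -0.66 in bFGF-JB6 cells, in order of falling signal. The mean over the 4 probe sets changed by -0.97 in RT101 cells. Between the lines they were less uniform: Ets1 was higher in RT101 on the brightest probe set both in monolayer (1.71-fold, adjusted p = 6.48e-05) and in colonies (1.45-fold, adjusted p = 0.00061). Tested one by one over all probe sets, the second brightest was also called higher in RT101, by 0.50 in monolayer (adjusted p = 0.0207) and by 0.55 in colonies (adjusted p = 0.00643), whereas the 2 dimmer ones were not called in either state (differences of 0.17 and 0.18 in monolayer, 0.26 and 0.13 in colonies). Averaged over its probe sets, the Ets1 line difference in monolayer was 0.41 in place of 0.78. In a bulk RNA sample, fewer cells that make a transcript and less transcript per cell cannot be told apart, here or below.

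Ets2, the closest relative of Ets1 and like it a nuclear target of ERK, went opposite ways in the 2 lines. It measured 7.49, 7.39 and 7.47 in RT101 colonies, against 8.03 and 8.08 in RT101 monolayer. In bFGF-JB6 cells it measured 9.66, 9.61 and 9.54 in colonies, against 8.40, 8.04 and 8.11 in monolayer. RT101 colonies thus held the lowest 3 values of the series and bFGF-JB6 colonies the highest 3, while the 2 monolayers overlapped. Group means were 7.45 ± 0.05 in RT101 colonies and 8.06 ± 0.03 in RT101 monolayer (SD, n = 3 and 2), and 9.60 ± 0.06 in bFGF-JB6 colonies and 8.19 ± 0.19 in bFGF-JB6 monolayer (SD, n = 3 each). Colonies were lower by a factor of 1.52 in RT101 (log2 change -0.61, SE 0.11) and 2.67-fold higher in bFGF-JB6 cells (log2 change 1.42, SE 0.10).

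The colony change of Ets2 in RT101 minus that in bFGF-JB6 cells was -2.02 (SE 0.15), which was called, and it took values from -2.16 to -1.95 in the 22 other settings. In colonies alone Ets2 was lower in RT101 by a factor of 4.44 (SE 0.10 on the log2 scale), which was called. That value is the difference of -2.02 plus the line difference in monolayer, so it is given without a p-value. In monolayer the lines differed by -0.13 (adjusted p = 0.383). Ets2 had a single probe set, so no second one could be set beside it. Among markers of other cells, the summed linear signal of 10 leukocyte markers was 207 to 215 in RT101 colonies and 185 to 200 in RT101 monolayer, against 516 to 559 in bFGF-JB6 colonies and 244 to 268 in bFGF-JB6 monolayer. Of that list 3 genes were higher in bFGF-JB6 colonies than in monolayer and 7 were not called. Cd68 led at 8.39, 8.31 and 8.24 against 6.35, 6.41 and 6.60. The defining marker Ptprc averaged 2.34 to 2.53 in all groups, far below the lower quartile of genes. Adgre1 (3.02 to 3.31), Itgam (2.86 to 3.08) and Cd3g (2.57 to 2.88) also averaged below that quartile in every group. The part of such cells in the Ets2 values was not tested.

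**Figure D1:**
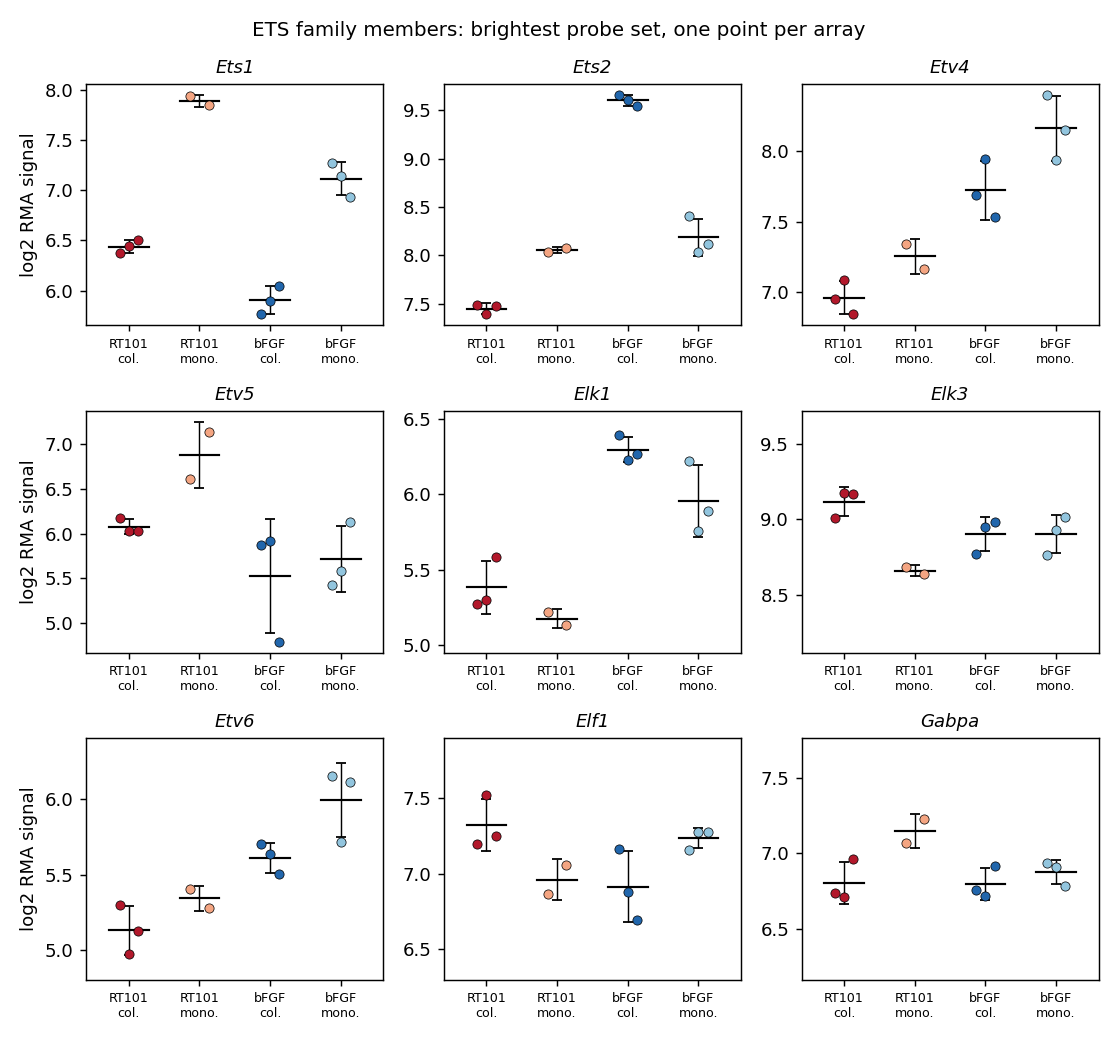
Log2 signal of the brightest probe set of each ETS gene, 1 point per array, with the groups from left to right RT101 colonies, RT101 monolayer, bFGF-JB6 colonies and bFGF-JB6 monolayer. Horizontal bars are group means and whiskers are SD; each panel has its own vertical range. Ets1 lies lower in both colony groups, and Ets2 is highest in bFGF-JB6 colonies (9.54 to 9.66) and lowest in RT101 colonies (7.39 to 7.49).

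Promoter windows, the bases from 250 before to 50 after the transcription start in GRCm38.p6, were read from RefSeq for 7 of the 9 genes, all but Ets1 and Etv4, and 9 promoters in all. Of these, 3 are shown because they differ in how many GGAA cores they hold: Ets2, on chr16:95702157-95702456 (+ strand), Elk1, on chrX:20950559-20950858 (- strand), and Etv6, on chr6:134035450-134035749 (+ strand). Capitals mark the core of an ETS site on either strand, GGAA or its complement TTCC.
Ets2: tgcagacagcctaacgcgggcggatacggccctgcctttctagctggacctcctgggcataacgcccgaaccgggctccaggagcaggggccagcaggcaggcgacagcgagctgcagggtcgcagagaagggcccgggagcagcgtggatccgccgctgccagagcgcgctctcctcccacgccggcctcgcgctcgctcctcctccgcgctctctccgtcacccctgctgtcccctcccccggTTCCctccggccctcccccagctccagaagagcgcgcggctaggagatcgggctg
Elk1: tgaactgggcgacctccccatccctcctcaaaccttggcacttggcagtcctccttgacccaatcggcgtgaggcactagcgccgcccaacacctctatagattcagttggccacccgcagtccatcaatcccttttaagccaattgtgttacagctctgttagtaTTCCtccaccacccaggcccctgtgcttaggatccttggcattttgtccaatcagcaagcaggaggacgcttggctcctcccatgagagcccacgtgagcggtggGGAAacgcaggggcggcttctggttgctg
Etv6: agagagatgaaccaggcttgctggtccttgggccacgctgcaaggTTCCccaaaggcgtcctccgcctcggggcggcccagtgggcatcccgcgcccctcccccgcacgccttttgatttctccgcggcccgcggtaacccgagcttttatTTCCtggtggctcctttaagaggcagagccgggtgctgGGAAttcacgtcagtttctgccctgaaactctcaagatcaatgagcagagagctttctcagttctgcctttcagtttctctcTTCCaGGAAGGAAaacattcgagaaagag
The Ets2 window held 1 core, that of Elk1 2, and that of Etv6 6, against a median of 3 over 32851 mouse promoter windows of the same length, of which 96.0% held at least 1. The longer ETS consensus CCGGAAGT, which contains the core and was found on either strand in 3.89% of all windows, was in none of the 9. TGANTCA, the site of AP-1 factors that often neighbour ETS proteins, was in 1 of the 9, an Elf1 promoter, against 7.81% of all windows. A CArG box, at which the Elk factors join serum response factor, was in none of the 9 and in 1.63% of all. These matches only describe the letters of the windows.

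Counted over the 9 genes, the colony comparison in RT101 cells passed the threshold (limma, adjusted p under 0.05 over all genes) for 4, namely Elk3 upwards and Ets1, Ets2 and Gabpa downwards, where 32.4% of all genes passed. In bFGF-JB6 cells 4 passed, namely Ets2 upwards and Ets1, Etv4 and Etv6 downwards, where 29.4% of all genes passed. Arrays of the 2 states did not overlap for 8 of the 9 in RT101 cells (56.1% of all genes) and for 4 of the 9 in bFGF-JB6 cells (37.8%). Ets1 was the 1 member called lower in both lines (5.21% of all genes), and none was called higher in both (5.7%). Since the genes were chosen with such changes known, nothing is read from these counts. The median change of the 9 was -0.30 in RT101 and -0.19 in bFGF-JB6 cells, beside -0.01 and 0.03 over all genes. Without the 2 arrays of raised 3' signal the counts were 6 in RT101 and 3 in bFGF-JB6 cells, where 4683 and 3652 of all 12393 genes passed.

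**Figure D2:**
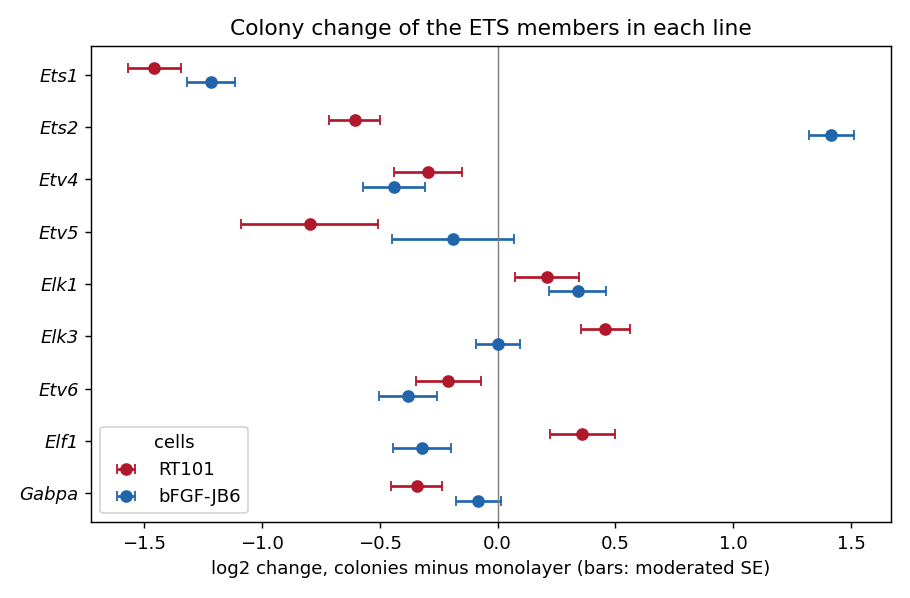
Log2 change of each ETS gene, colonies minus monolayer, in RT101 (red, upper point) and bFGF-JB6 cells (blue, lower point), with the moderated standard error as bars. Ets1 lies left of 0 in both lines (-1.46 and -1.22), whereas Ets2 lies on opposite sides (-0.61 and 1.42).

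Etv4 and Etv5, a pair of the PEA3 subfamily that growth factor signalling induces in many tissues, differed between the lines in opposite directions. Etv4 measured 6.95, 7.08 and 6.85 in RT101 colonies and 7.34 and 7.17 in RT101 monolayer. In bFGF-JB6 cells it measured 7.69, 7.95 and 7.53 in colonies and 8.40, 7.94 and 8.15 in monolayer. Every RT101 array lay below every bFGF-JB6 array. Etv4 was lower in RT101 by a factor of 1.88 in monolayer (log2 difference -0.91, SE 0.15, adjusted p = 0.000143) and of 1.70 in colonies (-0.76, SE 0.13, adjusted p = 0.000252). Its colony change was -0.30 (SE 0.15) in RT101 and -0.44 (SE 0.13) in bFGF-JB6 cells, the second called although 1 colony array lay inside the monolayer range. That call was lost on dropping both arrays with raised 3' signal, where the change was -0.23, without any 1 of bFGF-JB6 colonies replicates 1 and 3 and bFGF-JB6 monolayer replicates 1 and 3, and with array weights (-0.33).

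Etv5 was highest in RT101 monolayer, at 6.61 and 7.14, with 6.17, 6.03 and 6.03 in RT101 colonies. It measured 5.87, 5.92 and 4.80 in bFGF-JB6 colonies, where replicate 3 stood apart, and 5.43, 5.59 and 6.13 in bFGF-JB6 monolayer. RT101 monolayer lay clear of the other 3 groups. The colonies of the lines did not overlap each other, while bFGF-JB6 monolayer overlapped both. In monolayer Etv5 was 2.23-fold higher in RT101 (log2 difference 1.16, SE 0.29, adjusted p = 0.0046), and its second probe set gave 1.09 (adjusted p = 0.00904). Without RT101 monolayer replicate 2 the difference was 0.90 and did not pass (adjusted p = 0.0709). In colonies the line difference was 0.55 (adjusted p = 0.11), and 0.18 both without bFGF-JB6 colonies replicate 3 and without the 2 arrays of raised 3' signal. The colony change was -0.80 (SE 0.29) in RT101 and -0.19 (SE 0.26) in bFGF-JB6 cells, neither of them called, and the 2 changes differed by -0.61, which was not called either. The RT101 change took values from -1.06 to -0.54 in 21 other settings. It was called in 9 of them, among them, still at -0.80, that without both arrays with raised 3' signal. The difference of the changes was called at -0.83 without both arrays and at -0.98 without bFGF-JB6 colonies replicate 3 alone.

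Of 10 genes reported as Etv4 or Etv5 targets, all were measured. In monolayer 2 were higher and 3 lower in RT101 than in bFGF-JB6 cells (23.2% and 21.2% of all genes), and in colonies 1 was higher and 2 lower (22.7% and 20.7%). Dusp6, a phosphatase that removes ERK's activating phosphates and itself an ERK-induced gene, was lower in RT101 both in monolayer (log2 difference -1.32, adjusted p = 7.39e-08) and in colonies (-0.66, adjusted p = 2.09e-05). It was also lower in colonies than in monolayer in RT101 (-0.68, adjusted p = 7.6e-05) and in bFGF-JB6 cells (-1.34, adjusted p = 7e-08). Mmp14, a membrane-bound matrix protease, was higher in colonies in RT101 (0.78, adjusted p = 4.02e-05) and in bFGF-JB6 cells (1.63, adjusted p = 2.08e-08). Ptgs2, the inducible cyclooxygenase, was higher in RT101 than in bFGF-JB6 monolayer (1.48, adjusted p = 3.08e-08).

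Elk1 and Elk3 are ternary complex factors: with serum response factor they bind the promoters of immediate early genes, where phosphorylated Elk1 activates and Elk3 represses until it is phosphorylated. Elk1 measured 5.27, 5.30 and 5.59 in RT101 colonies and 5.22 and 5.13 in RT101 monolayer. It measured 6.39, 6.23 and 6.27 in bFGF-JB6 colonies and 6.22, 5.76 and 5.89 in bFGF-JB6 monolayer. On this brightest probe set all RT101 arrays lay below all bFGF-JB6 arrays, and within each line the colony arrays lay above the monolayer arrays. Elk1 was lower in RT101 by a factor of 1.71 in monolayer (log2 difference -0.78, SE 0.14, adjusted p = 0.000291) and of 1.88 in colonies (-0.91, SE 0.12, adjusted p = 2.76e-05). Its second probe set was called lower in RT101 colonies (-0.64, adjusted p = 0.00042) but not in monolayer (-0.21, adjusted p = 0.209), and the mean of both gave -0.49 in monolayer. The colony change was 0.21 (SE 0.14) in RT101 and 0.34 (SE 0.12) in bFGF-JB6 cells, neither of them called, and those changes differed by -0.13. The bFGF-JB6 change was called in 6 of 21 other settings, among them, at 0.48, that without both arrays with raised 3' signal. The second probe set measured 5.87 to 6.22 in bFGF-JB6 colonies and 5.53 to 5.56 in bFGF-JB6 monolayer, without overlap. Its bFGF-JB6 change of 0.48 was called over all probe sets. In RT101 its states overlapped, with a change of 0.05 that was not called. Its RT101 colonies, at 5.20 to 5.56, also overlapped bFGF-JB6 monolayer.

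Elk3 measured 9.01, 9.17 and 9.17 in RT101 colonies and 8.69 and 8.64 in RT101 monolayer, without overlap. In bFGF-JB6 cells the groups coincided, at 8.77, 8.95 and 8.99 in colonies and 8.77, 8.93 and 9.02 in monolayer. The colony change was 0.46 (SE 0.10) in RT101 and 0.00 (SE 0.09) in bFGF-JB6 cells. The difference between these changes, 0.46 (SE 0.14), was called, but not in 9 of 22 other settings, among them either rescaling of the arrays. Those 9 are the 2 rescalings and the fits without 1 array out of bFGF-JB6 monolayer replicates 2 and 3, bFGF-JB6 colonies replicate 1, RT101 monolayer replicates 1 and 2, and RT101 colonies replicates 2 and 3. For this difference a second Elk3 probe set gave 0.49, which was called, and the third 0.17, which was not. The RT101 colony change itself was 0.30 on the second probe set and 0.19 on the third, where arrays overlapped. Neither of these 2 changes was called over all probe sets. Between the lines Elk3 was not called in monolayer (-0.24, adjusted p = 0.0796) or in colonies (0.21, adjusted p = 0.0839), although the second probe set was lower in RT101 monolayer (-0.54, adjusted p = 0.00215). Without the 2 arrays of raised 3' signal both differences of Elk3 passed, at -0.31 in monolayer (adjusted p = 0.0229) and 0.26 in colonies (adjusted p = 0.0371). They passed in 7 and 4 of the 22 other settings.

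Srf, the serum response factor that both Elk proteins bind, was higher in RT101 than in bFGF-JB6 cells in monolayer (log2 difference 1.0, SE 0.13, adjusted p = 2.1e-05) and in colonies (0.68, adjusted p = 0.000254). It was lower in RT101 colonies than in RT101 monolayer (-0.51, adjusted p = 0.00717). Among 12 serum response genes that the Elk factors are known to regulate, 0 were higher and 7 lower in bFGF-JB6 colonies than in monolayer (14.1% and 15.3% of all genes), with a median change of -0.58. In RT101 cells 4 were higher and 3 lower (17% and 15.4% of all genes), with a median of -0.03. The change differed between the lines for 6 of the 12, more positive in RT101 for 5 and more negative for 1 (15% and 12.7% of all genes).

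Fos, the immediate early gene on which ternary complex factors were first studied, measured 6.96, 6.90 and 7.02 in RT101 colonies and 6.05 and 5.97 in RT101 monolayer. It measured 6.83, 6.76 and 6.86 in bFGF-JB6 colonies and 8.16, 8.11 and 8.20 in bFGF-JB6 monolayer. The colonies of both lines thus lay close together while the monolayers lay far apart. Colonies were higher in RT101 (0.95, adjusted p = 1.47e-06) and lower in bFGF-JB6 cells (-1.34, adjusted p = 2.95e-08), a difference of 2.29 (adjusted p = 1.38e-08). Egr2, an early growth response factor, changed by 1.25 in RT101 (adjusted p = 1.28e-05) and by -0.97 in bFGF-JB6 cells (adjusted p = 6.2e-05). Btg2, an antiproliferative gene, and Egr1 were lower in bFGF-JB6 colonies (-2.33 and -0.99) and changed by 0.01 and 0.02 in RT101, which did not pass.

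Etv6, a repressor known from translocations in leukaemia, followed the order seen for Etv4. It measured 5.30, 4.98 and 5.13 in RT101 colonies and 5.40 and 5.28 in RT101 monolayer. In bFGF-JB6 cells it measured 5.70, 5.63 and 5.50 in colonies and 6.16, 5.71 and 6.11 in monolayer. All RT101 arrays were again below all bFGF-JB6 arrays. Over the 11 arrays Etv6 and Etv4 correlated at 0.939, the closest pair among the 9, as a description of arrays that share their groups. Etv6 was lower in RT101 by a factor of 1.57 in monolayer (-0.65, SE 0.14, adjusted p = 0.00132) and of 1.39 in colonies (-0.48, SE 0.12, adjusted p = 0.00546). Its colony change was -0.21 (SE 0.14) in RT101, where arrays overlapped, and -0.38 (SE 0.12) in bFGF-JB6 cells, where they did not. The bFGF-JB6 call was lost on dropping both arrays with raised 3' signal, where the change was -0.25, without any 1 of bFGF-JB6 colonies replicates 2 and 3 and bFGF-JB6 monolayer replicates 1 and 3, with array weights (-0.36) and with only the compared groups in the model (-0.38).

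Elf1, an activator best known from lymphoid and endothelial genes, had small colony changes of opposite sign. It measured 7.19, 7.52 and 7.25 in RT101 colonies and 6.87 and 7.06 in RT101 monolayer. In bFGF-JB6 cells it measured 7.17, 6.88 and 6.70 in colonies and 7.16, 7.28 and 7.28 in monolayer, where 1 colony array reached into the monolayer range. The changes of 0.36 (SE 0.14) and -0.32 (SE 0.12) were not called one by one, and their difference of 0.68 (SE 0.18) was. The RT101 change was called in 9 of 22 other settings, among them, at 0.36, that without both arrays with raised 3' signal, and the bFGF-JB6 change in 4 of 22. Without RT101 monolayer replicate 1 the difference was 0.58 and was not called. In colonies Elf1 was 1.33-fold higher in RT101 (adjusted p = 0.0153), a call that was lost on dropping both arrays with raised 3' signal (adjusted p = 0.0675), without bFGF-JB6 colonies replicate 3 (adjusted p = 0.061) and without RT101 colonies replicate 2 (adjusted p = 0.0838). Markers of endothelial cells, in which Elf1 is also active, were at or below the lower quartile for 5 of 8 genes in every group.

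Gabpa, which binds DNA with its partner Gabpb1 and serves genes of mitochondria and the cell cycle, had the smallest span of group means among the 9, 0.35. It measured 6.74, 6.71 and 6.96 in RT101 colonies and 7.07 and 7.23 in RT101 monolayer, without overlap. It measured 6.76, 6.72 and 6.91 in bFGF-JB6 colonies and 6.93, 6.91 and 6.79 in bFGF-JB6 monolayer, which overlapped. The colony change was -0.34 (SE 0.11) in RT101, called on the brightest probe set, and -0.65 on the second, and was -0.08 (SE 0.10) in bFGF-JB6 cells. The RT101 call was lost without RT101 monolayer replicate 2 and without either RT101 colonies replicate 1 or 2. The lines differed by 0.27 in monolayer (adjusted p = 0.0583), which passed in 7 of 22 other settings, among them, at 0.30 (adjusted p = 0.0434), that without both arrays with raised 3' signal, and by 0.01 in colonies (adjusted p = 0.962), and the second probe set was called higher in RT101 monolayer (0.58, adjusted p = 0.0404).

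Gabpb1 was higher in RT101 than in bFGF-JB6 monolayer (0.66, adjusted p = 0.0279). Of 10 reported Gabpa targets measured, 0 were higher and 5 lower in RT101 colonies than in monolayer (17% and 15.4% of all genes), with a median of -0.34, and in bFGF-JB6 cells 0 were higher and 1 lower (14.1% and 15.3% of all genes), with a median of -0.08. In monolayer 6 were higher and 1 lower in RT101 than in bFGF-JB6 cells (23.2% and 21.2% of all genes), with a median of 0.42. Tfam, the mitochondrial transcription factor that Gabpa is known to drive, was lower in RT101 colonies than in monolayer (-0.68, adjusted p = 7.7e-05) and higher in RT101 than in bFGF-JB6 monolayer (0.74, adjusted p = 1.84e-05). Tfb1m, which methylates mitochondrial ribosomal RNA, gave -0.70 (adjusted p = 0.00396) and 1.76 (adjusted p = 8.38e-07) in the same 2 comparisons.

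Set side by side, the lines differed for 5 of the 9 ETS genes in monolayer, where 44.4% of all genes passed: Ets1 and Etv5 were higher and Etv4, Elk1 and Etv6 lower in RT101. In colonies 6 of 9 passed, where 43.3% of all genes did: Ets1 and Elf1 were higher and Ets2, Etv4, Elk1 and Etv6 lower in RT101. Without the 2 arrays of raised 3' signal the counts were 7 in monolayer and 6 in colonies, where 5671 and 5698 of all genes passed. Arrays of the lines did not overlap for 8 of 9 genes in monolayer (61.1% of all genes) and for 8 of 9 in colonies (50.4%). The colony change differed between the lines for 3 of 9, Ets2, Elk3 and Elf1, where 27.7% of all genes passed. These shares describe 9 genes and are not set apart from those of all genes by any test. Counted as probe sets, 8 of 17 passed the colony comparison in RT101 (28.5% of all probe sets) and 8 of 17 in bFGF-JB6 cells (26.5%). Further, 9 of 17 passed between the lines in monolayer (40.2%), 8 of 17 in colonies (39.6%) and 4 of 17 for the difference in colony change (23.2%).

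**Figure D3:**
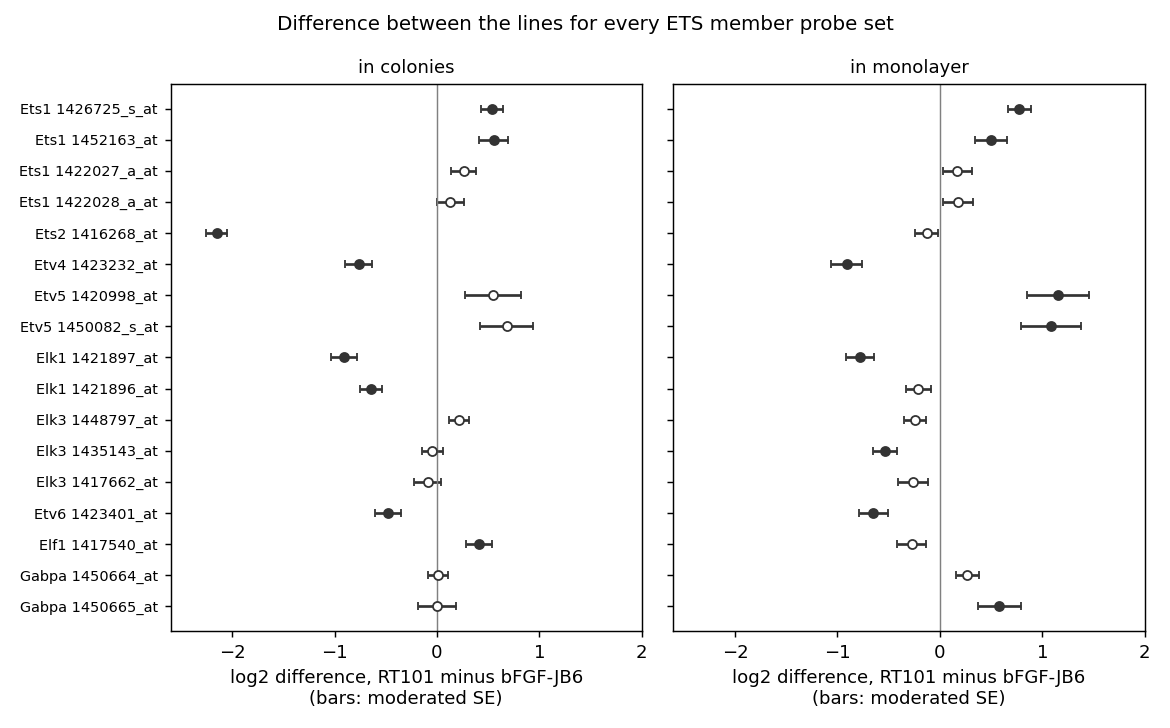
Log2 difference RT101 minus bFGF-JB6 for each of the 17 ETS probe sets, in colonies (left) and in monolayer (right), with the moderated standard error as bars. Filled points passed an adjusted p under 0.05 over all probe sets; Ets2 stands at -2.15 in colonies and -0.13 in monolayer, and the 2 dimmer Ets1 probe sets are open in both panels.

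Of the other ETS genes of the mouse, 15 of 18 listed were measured. Between the lines 3 were higher and 3 lower in RT101 monolayer (23.2% and 21.2% of all genes), and 1 was higher and 4 lower in RT101 colonies (22.7% and 20.7%). Fli1, which lies next to Ets1 on chromosome 9, measured 3.85, 3.93 and 3.75 in RT101 colonies, 3.64 and 3.46 in RT101 monolayer, 4.50, 4.13 and 4.69 in bFGF-JB6 colonies and 4.81, 4.46 and 4.97 in bFGF-JB6 monolayer. It was lower in RT101 in monolayer (log2 difference -1.20, adjusted p = 3.7e-05) and in colonies (-0.60, adjusted p = 0.00438), where its neighbour Ets1 was higher, though all its values lay in the lower part of the array's range. Erg, next to Ets2 on chromosome 16, averaged 4.40 to 4.64 over the groups and passed no comparison.

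The epithelial factor Ehf was lower in RT101 (-1.38 in monolayer, adjusted p = 5.08e-06, and -0.79 in colonies, adjusted p = 0.000292), where it lay between 3.13 and 3.42, near the bottom of the range. Spib, a factor of B lymphocytes, was higher in RT101 colonies than in RT101 monolayer (1.10, adjusted p = 0.000586) and than in bFGF-JB6 colonies (1.08, adjusted p = 0.000169). It was also higher in bFGF-JB6 colonies than in bFGF-JB6 monolayer, by 0.49 (adjusted p = 0.04997). All Spib values lay below the median of gene means, in the lower part of the array's range. Elf4 was lower in RT101 colonies than in monolayer (-0.52, adjusted p = 0.00935) and changed by 0.26 in bFGF-JB6 cells, which did not pass, and the 2 changes differed by -0.77 (adjusted p = 0.00575). Elk4, the third ternary complex factor, was lower in RT101 colonies than in monolayer (-0.38, adjusted p = 0.0168) and higher in RT101 than in bFGF-JB6 monolayer (0.56, adjusted p = 0.000823). Elf2, a close relative of Elf1, was higher in bFGF-JB6 colonies than in monolayer (0.47, adjusted p = 0.0066).

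**Figure D4:**
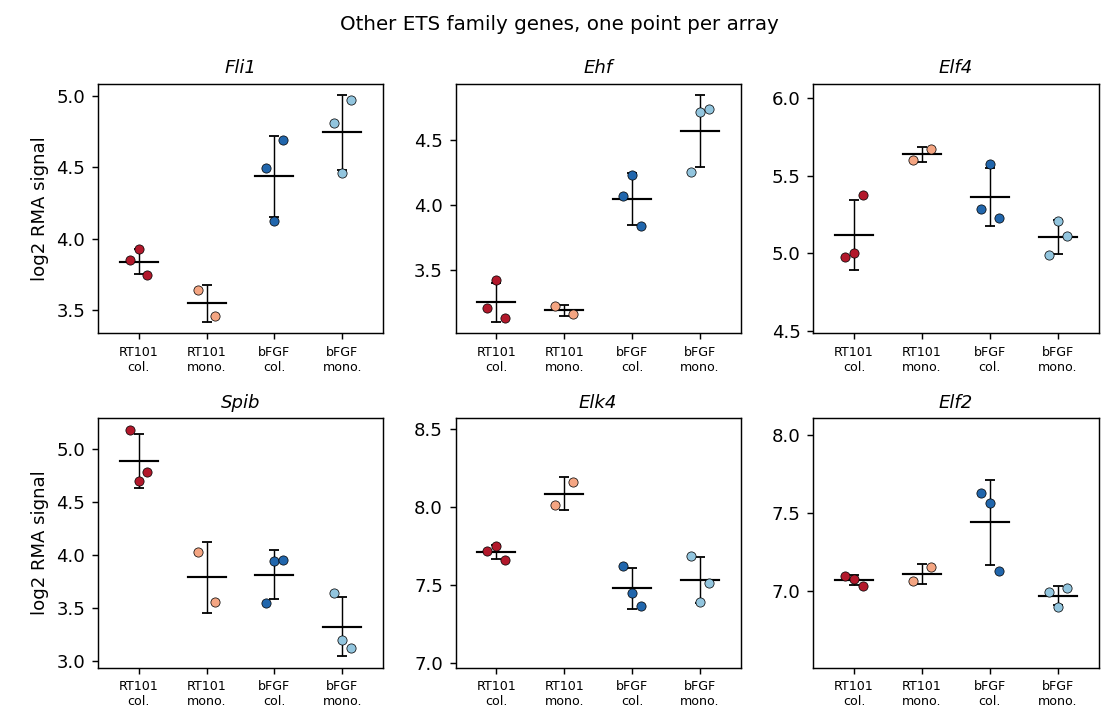
Log2 signal of 6 further ETS genes, 1 point per array, with groups, means and SD drawn as for the 9 genes; each panel has its own vertical range. Fli1 and Ehf lie lower on all RT101 arrays, at 3.46 to 3.93 and 3.13 to 3.42, and Spib is highest in RT101 colonies, at 4.70 to 5.18.

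Upstream, 15 of 20 listed genes of the Ras-MAP kinase cascade were measured. In RT101 colonies 2 were higher and 5 lower than in monolayer (17% and 15.4% of all genes), and in bFGF-JB6 colonies likewise 2 were higher and 5 lower (14.1% and 15.3%). Between the lines 7 were higher and 5 lower in RT101 monolayer (23.2% and 21.2%), and 5 were higher and 5 lower in RT101 colonies (22.7% and 20.7%). Rras2, a Ras-related GTPase, measured 7.76, 7.71 and 7.82 in RT101 colonies and 9.86 and 9.98 in RT101 monolayer, a change of -2.16 (adjusted p = 5.33e-09). It changed by -1.28 in bFGF-JB6 cells (adjusted p = 3.45e-07). Sos1 and Sos2, exchange factors that load Ras with GTP, were lower in RT101 colonies (-1.12 and -1.11, adjusted p = 0.000164 and 0.000116) and did not pass in bFGF-JB6 cells (0.18 and -0.36). The difference of the changes passed for both (-1.29 and -0.75, adjusted p = 0.000737 and 0.0195).

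Of the proteins that bind ETS factors or control their turnover, 14 of 18 were measured, and in either line 2 were higher and 4 lower in colonies than in monolayer, beside 17% and 15.4% of all genes in RT101 and 14.1% and 15.3% in bFGF-JB6 cells. Jun and Fosl1, AP-1 subunits that bind beside Ets1 on protease promoters, were lower in colonies of RT101 (-0.78 and -1.10, adjusted p = 4.93e-05 and 5.77e-07) and of bFGF-JB6 cells (-0.60 and -0.70, adjusted p = 0.000222 and 1.84e-05). Fos and Junb, also AP-1 subunits of this list, were higher in RT101 colonies (0.95 and 0.72, adjusted p = 1.47e-06 and 0.000923). In bFGF-JB6 cells Fos was lower in colonies (-1.34, adjusted p = 2.95e-08), and Junb averaged 8.87 in colonies and 8.95 in monolayer. Crebbp, a coactivator that acetylates ETS proteins and histones, was higher in bFGF-JB6 colonies than in monolayer (0.64, adjusted p = 0.00551) and changed by -0.45 in RT101, which did not pass. Its changes differed by -1.08 (adjusted p = 0.00255).

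Of 20 genes reported as Ets1 or Ets2 targets, 18 were measured. In monolayer 1 was higher and 10 were lower in RT101 than in bFGF-JB6 cells (23.2% and 21.2% of all genes), with a median difference of -0.99 beside 0.05 over all genes. In colonies 1 was higher and 9 lower (22.7% and 20.7%), with a median of -0.24. In colonies against monolayer 4 were higher and 1 lower in RT101 (17% and 15.4%), and 2 were higher and 7 lower in bFGF-JB6 cells (14.1% and 15.3%), where 2 and 4 were called without the 2 arrays of raised 3' signal. The change differed between the lines for 10 of the 18, more positive in RT101 for 7 and more negative for 3 (15% and 12.7%).

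The matrix proteases of this list did not share one pattern. Mmp13, a collagenase, measured 5.68, 5.91 and 5.88 in RT101 colonies and 4.98 and 5.45 in RT101 monolayer, with 11.33, 11.42 and 11.45 in bFGF-JB6 colonies and 8.24, 8.24 and 8.02 in bFGF-JB6 monolayer. It was 9.39-fold higher in bFGF-JB6 colonies than in monolayer (adjusted p = 3.8e-10) and 1.53-fold higher in RT101 colonies (adjusted p = 0.0026), a difference of -2.62 on the log2 scale (adjusted p = 1.69e-07). Mmp9, a gelatinase, measured 7.92, 7.91 and 7.67 in RT101 colonies and 4.93 and 5.37 in RT101 monolayer, with 6.27, 6.50 and 6.13 in bFGF-JB6 colonies and 6.82, 6.74 and 6.70 in bFGF-JB6 monolayer. It was 6.42-fold higher in RT101 colonies (adjusted p = 8.58e-09) and lower in bFGF-JB6 colonies (-0.46, adjusted p = 0.0136).

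Mmp3, stromelysin 1, had the largest line difference of the list in monolayer. It measured 6.42, 6.26 and 6.44 in RT101 colonies and 4.62 and 4.82 in RT101 monolayer, with 10.83, 10.80 and 10.89 in bFGF-JB6 colonies and 11.12, 11.12 and 11.03 in bFGF-JB6 monolayer. The line difference was -6.37 in monolayer (adjusted p = 4.17e-14) and -4.46 in colonies (adjusted p = 1.29e-13). Mmp10 was lower in bFGF-JB6 colonies than in monolayer (-1.66, adjusted p = 1.29e-05), as was Mmp1a (-3.01, adjusted p = 2.01e-09), and neither passed in RT101 cells. Mmp1a averaged 2.53 in RT101 colonies and 2.65 in RT101 monolayer, far below the lower quartile of genes, where a fall could hardly be seen. Mmp10 averaged 4.82 in RT101 colonies and 4.57 in RT101 monolayer. Tnc, an extracellular matrix glycoprotein, was higher in RT101 colonies than in monolayer (1.52, adjusted p = 9e-08) and lower in bFGF-JB6 colonies (-1.25, adjusted p = 2.44e-07), so that colonies of the lines differed by -0.02 (adjusted p = 0.911). Ccnd1, cyclin D1, was lower in bFGF-JB6 colonies (-1.68, adjusted p = 6.95e-07) and changed by -0.34 in RT101, which did not pass (adjusted p = 0.109).

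**Figure D5:**
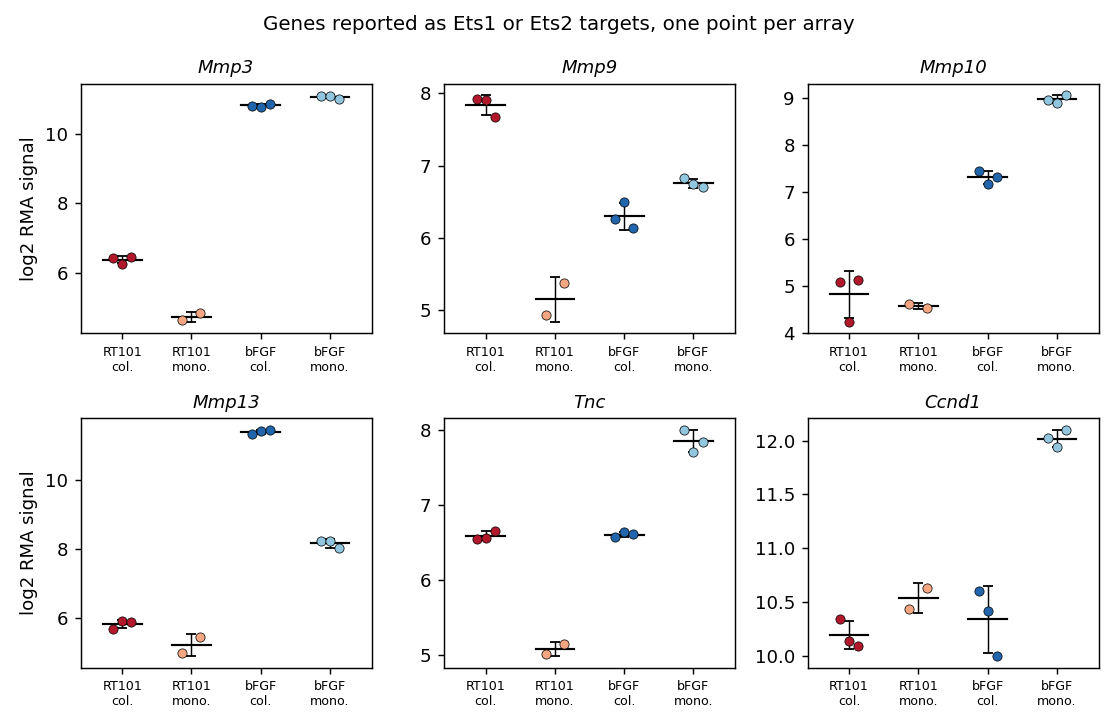
Log2 signal of 6 reported Ets1 or Ets2 target genes, 1 point per array, with groups, means and SD drawn as for the ETS genes; each panel has its own vertical range. Mmp13 is highest in bFGF-JB6 colonies (11.33 to 11.45) and Mmp9 in RT101 colonies (7.67 to 7.92), and Tnc lies at similar values in both colony groups (6.55 to 6.66).

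For the 5 ETS genes whose group means spanned at least 1 on the log2 scale, the 3 genes of most similar pattern were found by Pearson correlation over the 11 arrays among genes at or above the median signal. With Ets1 these were Srpk1, a kinase of splicing factors (r = 0.991), Ciapin1 (0.990) and Myadm (0.989). Srpk1 averaged 7.41 in RT101 colonies and 8.15 in RT101 monolayer, with 7.19 in bFGF-JB6 colonies and 7.75 in bFGF-JB6 monolayer, the same order of groups as Ets1. With Ets2 they were Ugcg, the glucosylceramide synthase (0.986), Tmem268 (0.983) and Gpr137b-ps (0.981). Ugcg averaged 7.44 in RT101 colonies and 7.62 in RT101 monolayer, with 8.79 in bFGF-JB6 colonies and 7.77 in bFGF-JB6 monolayer. The nearest genes were Slc12a4 (0.974), Dohh (0.970) and Traf4 (0.965) for Etv4, Rbm22 (0.955), Mtch2 and Camk2d (0.951 each) for Etv5, and Pld1 (0.978), Mia3 (0.969) and C77080 (0.968) for Elk1. All these points share the 4 groups, so the correlations mostly restate the differences between group means.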

How the data were processed

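Biotin-labelled RNA of 11 samples was hybridised to Affymetrix mouse arrays, and the authors deposited 1 log2 signal per probe set and array, computed with RMA per the submitters' processing notes (its version is not given there). The 22690 probe sets comprised 64 controls, 20380 with a single annotated gene, 691 with several and 1555 unnamed; symbols came from the platform annotation, and RefSeq held 20351 of the single-gene ones by gene number, with no change of symbol. The deposited values were not rescaled. For each of 12393 genes the single-gene probe set of highest mean was used; 4956 genes had more than 1.

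Groups were taken from the sample titles. A linear model with group as its only term was fitted to all arrays with limma 3.58.1 (lmFit and eBayes, R 4.3.3; 7 residual degrees of freedom), so that the 2 arrays of RT101 monolayer are assumed to vary like the other groups. Benjamini-Hochberg adjustment ran over all genes, or over all 22626 non-control probe sets for probe set results, with a threshold of 0.05. The procedure was also run on simulated data, and nothing is read from that run here. The number of arrays limits the precision, and errors are SD for levels and moderated SE for differences.

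The members and the gene lists were chosen with earlier results of these data known. The lists overlap. Fos, Fosl1, Junb and Srf stand among both the partners and the serum response genes, and Vim among both the reported Etv4 or Etv5 targets and the mesenchymal markers. All members were named. From each list, the genes to name were up to 4 called genes of largest change in each comparison, of which a part is given, and, whatever their result, Dusp6, Srf, Gabpb1, Spi1, Ptprc, Pecam1, Krt14, Krt18 and Col1a1. Fli1 and Erg are named as neighbours of Ets1 and Ets2, and genes named beside them, or shown in another comparison, were chosen after their values were seen. Alternatives covered probe set summary, filter, scaling, variance model, array weights, arrays in the fit, a replicate block, a 2-fold minimum, and leaving out arrays. Promoter windows were read from the RefSeq table of GRCm38.p6. Python 3.11.15 with matplotlib 3.10.9 made the figures.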

Additional observations from a re-analysis of the deposited data

Results flagged for a closer look

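The colony change differed between the lines, by an adjusted p under 0.05 for the difference itself in limma, for 3 of the 9 ETS genes. For Ets2 the change in RT101 minus that in bFGF-JB6 cells was -2.02 (SE 0.15), with colonies lower in RT101 and higher in bFGF-JB6 cells on every array. For Elf1 it was 0.68 (SE 0.18), with changes of 0.36 in RT101 and -0.32 in bFGF-JB6 cells that were not called one by one. For Elk3 it was 0.46 (SE 0.14), with 0.46 in RT101 and 0.00 in bFGF-JB6 cells, and 2 of its 3 probe sets passed. Over all genes 27.7% passed the same threshold. The genes were chosen with their colony changes known, so these differences are a description, with no p-value.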

How the results depend on the processing

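The 2-fold minimum is left out of the 22 other settings, and its counts are given below. Ets1 and Ets2 kept every call they had in all 22. Etv4, Elk1 and Etv6 kept theirs between the lines (in 21 for Elk1 and Etv6, which the filter on low values removed). Over all members, comparisons and settings, 881 values kept their direction and side of the threshold, 49 passed where they had not, 30 no longer passed and 15 turned sign, none of the 15 called. The cause of these changes was not tested. For Elk3 in bFGF-JB6 colonies against monolayer the turned values were -0.055 with the mean of probe sets, -0.015 with median centring, -0.049 with array weights and -0.11 without both arrays of raised 3' signal, and leaving out 1 array gave -0.068 to 0.066. For Etv5 in the same comparison the value was 0.034 without both arrays, and leaving out 1 array gave -0.38 to 0.18. For Gabpa between the lines in colonies it was -0.014 with cyclic loess, and leaving out 1 array gave -0.072 to 0.066. For Etv4 the difference in colony change was -0.069 without both arrays.

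Counts moved by more than 1.5 times in few settings. With a 2-fold minimum, the members called were 1 in RT101 colonies, 2 in bFGF-JB6 colonies, and 1 each for the difference in change and for the lines in monolayer and in colonies; the probe sets called were 2, 3, 1, 2 and 1 in the same order. With only the compared groups in the fit, 7 members were called in RT101 colonies. For the difference in change, 2 probe sets were called with median centring and 8 without the 2 arrays of raised 3' signal. Leaving out 1 array gave 3 to 6 members (4 to 12 probe sets) in RT101 colonies, 2 to 5 (6 to 8) in bFGF-JB6 colonies, 1 to 4 (1 to 7) for the difference in change, 4 to 6 (5 to 10) for the lines in monolayer and 5 to 6 (7 to 9) in colonies. The lowest counts came without RT101 monolayer replicate 1 (1 member) for the difference in change, without RT101 monolayer replicate 2 for the probe sets in RT101 colonies (4) and between the lines in monolayer (5), and without bFGF-JB6 colonies replicate 3 or monolayer replicate 3 in bFGF-JB6 colonies (2 members each).

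The replicate numbers of the titles share only a number: of 15 pairs of same-numbered arrays, 5 had deviations from their group means that correlated over 0.1 (-0.34 to 0.32), and 8 of 15 did for the letters in the descriptions (-0.28 to 0.32). With the title number as a replicate block, 5 members were called in RT101 colonies, 5 in bFGF-JB6 colonies, 3 for the difference in change, 5 in monolayer and 6 in colonies between the lines. With the letters as the block the counts were 4, 4, 3, 6 and 7. Across the 22 settings, 6 to 8 of 12 serum response genes were lower in bFGF-JB6 colonies, 4 to 5 of 10 reported Gabpa targets in RT101 colonies, and 8 to 10 of 18 reported Ets1 or Ets2 targets in RT101 monolayer. Signal over background was not analysed here.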
